A study of Mus musculus with 4 samples.

Results

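The genes described here are 9 members of the vascular endothelial growth factor (VEGF) system, chosen by symbol and with earlier results of these data known. They are the 3 receptors Kdr, Flt1 and Flt4, the 2 neuropilins Nrp1 and Nrp2, and the 4 ligands Vegfa, Vegfb, Vegfc and Pgf. They were taken from 20656 genes that the array's RefSeq accessions named, through all probes of each symbol, 12 probes in all. RNA came from EB5, a mouse embryonic stem (ES) cell line carrying a red fluorescent protein (RFP) reporter of the homeobox gene Hoxb6. The cells had spent 6 days in differentiation over OP9 feeder cells, which are bone marrow stroma of the mouse, and were sorted with an antibody to Flk-1, the protein that Kdr encodes, and by the reporter. The Flk-1-positive, RFP-positive fraction and the Flk-1-positive, RFP-negative fraction were each hybridised to 2 one-colour arrays, and both came from the same line, day and feeder culture system. Whether the reporter line was 1 clone, whether the 2 arrays of a fraction came from separate cultures, and how feeder cells were kept out of the sort are not given in the sources used here. Any p-value below therefore measures only the spread between these arrays, which may be technical.

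VEGF-A binds the receptor tyrosine kinases encoded by Kdr and Flt1, of which the first transmits most of the mitogenic signal and the second, which binds more tightly and is also made in a soluble form, limits the ligand that reaches it. Placental growth factor (Pgf) and VEGF-B bind the Flt1 receptor, and VEGF-C binds the Flt4 receptor and, once processed, the Kdr receptor. The neuropilins are co-receptors that VEGF shares with class 3 semaphorins. In the embryo Kdr marks the mesoderm from which blood, endothelium and part of the heart arise.

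Each level given is a log2 signal with the array's 75th percentile set to 0, and all differences are RFP-positive minus RFP-negative. Between 55.2% and 59.3% of the spots that were not controls were well above background on an array by the scanner's own mark, and no such spot was saturated. Across 13428 genes, which are not independent replicates, RFP-positive replicate 2 had Pearson correlations of 0.95 to 0.964 with the other arrays, against 0.974 to 0.982 among those. Hoxb6 itself was not well above background, at −5.89 and −6.48 in RFP-positive cells and −5.97 and −6.17 in RFP-negative cells, and so gave no check of the sort. With 2 arrays against 2, an exact permutation test of one gene cannot give a two-sided p below 0.333, and the tests below are from limma's moderated fit over all 13430 genes tested.

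All 9 members were well above background on all 4 arrays and were tested. None passed an adjusted p of 0.05 in limma's fit (Benjamini-Hochberg over all genes tested), where the background was 0% of 13430 genes, and their adjusted p ran from 0.704 to 0.890. Flt1, Vegfa and Pgf, all higher in RFP-positive cells, had an unadjusted p under 0.05, against 6.49% of all genes tested in either direction and 2.77% on the higher side. The difference was above 0 for 7 members and below 0 for 2, where 45.2% of all genes were above 0. Both RFP-positive arrays lay above both RFP-negative arrays for 6 of the 9 members (Kdr, Flt1, Nrp2, Vegfa, Vegfc and Pgf), against 18.8% of all genes. They lay below for 1, Vegfb, against 21.6% of all genes, and the fractions overlapped for Flt4 and Nrp1. The 6 became 4 with quantile normalization, alone (20.6% of all genes) or after normexp (20.5%), where Kdr and Nrp2 overlapped. They also became 4 with the mean of a gene's probes (17.9% of all genes), where Nrp2 and Vegfa overlapped. Scaling to the median made the count 7, with Nrp1 added, but 24.4% of all genes were then higher without overlap. No member had every RFP-positive array at least 2-fold from every RFP-negative array, a separation reached by 0.469% of all genes upward and 0.894% downward. The median difference was 0.18 over the members and −0.05 over all genes tested.

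**Figure D1:**
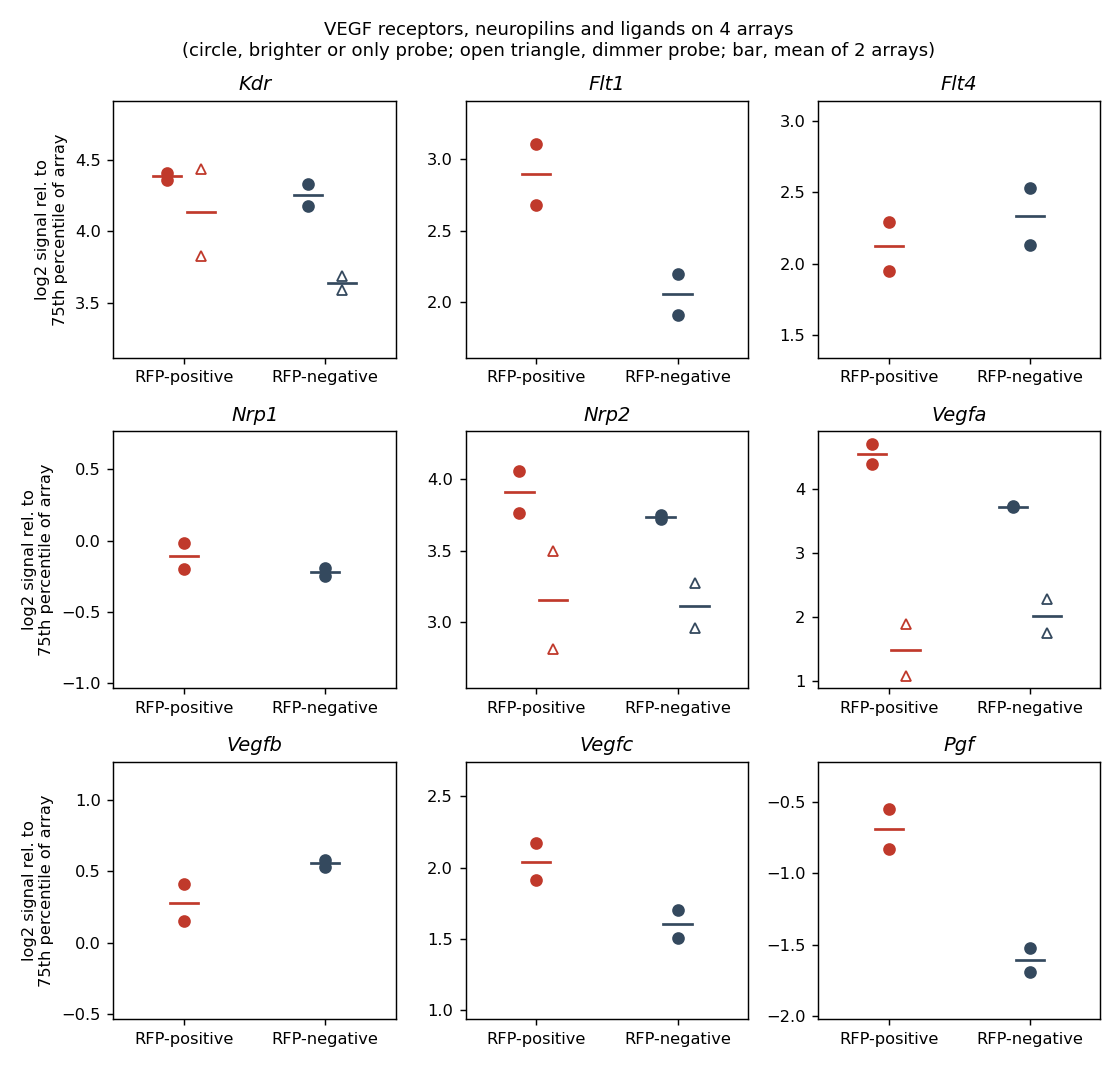
The log2 signal relative to the array's 75th percentile is plotted for each array, with RFP-positive arrays on the left and RFP-negative arrays on the right; circles are the brighter or only probe of a gene, open triangles the dimmer of 2 probes, and bars the mean of 2 arrays. The vertical range differs between panels. Flt1, Vegfc, Pgf, both Kdr probes and the brighter Nrp2 and Vegfa probes separate with the RFP-positive arrays above. The gap is only 0.04 for the brighter Kdr probe and 0.01 for Nrp2. Vegfb separates with the RFP-positive arrays below, while Flt4, Nrp1 and the dimmer Nrp2 and Vegfa probes overlap.

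Among the receptors Flt1 differed most, with 2.68 and 3.11 in RFP-positive cells and 2.20 and 1.91 in RFP-negative cells. The lower RFP-positive array was 0.47 above the higher RFP-negative array, so the fractions did not overlap. The difference was 0.84 (SE 0.28), or 1.79-fold with a 95% interval of 1.08 to 2.96, at a limma adjusted p of 0.745. It was 0.62 without RFP-positive replicate 2. In bulk samples such as these, fewer cells of a type and less RNA per cell cannot be told apart.

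Kdr, the gene behind the Flk-1 gate, was at 4.41 and 4.36 in RFP-positive cells and at 4.18 and 4.33 in RFP-negative cells. Since both fractions were sorted on its protein, its presence in both is part of the design. The fractions were separated by 0.04, less than the distance between the RFP-negative arrays, and the difference of 0.13 had a 95% interval of −0.46 to 0.73 (limma adjusted p 0.872). This probe was printed 10 times per array, and the SD over those spots ran from 0.027 to 0.058. The other Kdr probe, printed once, was at 3.83 and 4.44 in RFP-positive cells and 3.59 and 3.69 in RFP-negative cells. It also placed the RFP-positive arrays higher, by 0.50 with a 95% interval of −0.33 to 1.32, and its 2 RFP-positive arrays stood further apart than the fractions did.

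Flt4, the receptor that lymphatic endothelium keeps in the adult, was at 1.95 and 2.29 in RFP-positive cells and 2.13 and 2.53 in RFP-negative cells. The fractions overlapped, and the difference was −0.21 with a 95% interval of −0.94 to 0.52 (limma adjusted p 0.835). A change of up to 1.43-fold upward, or to 0.52-fold downward, was thus not separable from none with these arrays.

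Nrp1, the neuropilin that is a co-receptor for VEGF-A on endothelium, was at −0.20 and −0.02 in RFP-positive cells and −0.25 and −0.19 in RFP-negative cells, which overlapped, with a difference of 0.11 (95% interval −0.48 to 0.71, limma adjusted p 0.890). Nrp2 was at 3.76 and 4.06 in RFP-positive cells and 3.72 and 3.75 in RFP-negative cells. Its fractions were 0.01 apart, and the difference of 0.18 (95% interval −0.45 to 0.81, limma adjusted p 0.839) was 0.03 without RFP-positive replicate 2. The Nrp2 values come from the probe annotated to NM_001077403, while a probe annotated to another RefSeq transcript of the gene, NM_001077406, overlapped between the fractions and differed by 0.04.

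Pgf had the largest difference of the 9 genes. It was at −0.55 and −0.83 in RFP-positive cells and at −1.52 and −1.69 in RFP-negative cells, 0.70 between the nearest arrays. The means were −0.69 ± 0.19 in RFP-positive and −1.61 ± 0.12 in RFP-negative cells (SD, n = 2 each), and the difference of 0.92 (SE 0.24) amounted to 1.89-fold with a 95% interval of 1.21 to 2.94 (limma adjusted p 0.704). Of all genes tested, 3.13% had a higher difference. Without RFP-positive replicate 2 it was 1.05, and it was 0.55 when median spot signals were corrected by normexp with an offset of 50 and quantile normalized.

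For Vegfa the brighter probe, annotated to NM_001025250, gave 4.39 and 4.70 in RFP-positive cells and 3.72 and 3.73 in RFP-negative cells. All RFP-positive values lay at least 0.66 above the RFP-negative ones. The difference was 0.82 (SE 0.24), or 1.76-fold with a 95% interval of 1.14 to 2.73 (limma adjusted p 0.727), and 0.66 without RFP-positive replicate 2. A higher difference was seen for 4.09% of all genes tested.

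The dimmer Vegfa probe, annotated to NM_001025257, went the other way. It was at 1.89 and 1.09 in RFP-positive cells and at 2.29 and 1.76 in RFP-negative cells, which overlapped, and was lower by −0.54 in RFP-positive cells (95% interval −1.56 to 0.48, limma adjusted p 0.786 over 30519 probes). Within an array, the log2 ratio of the brighter to the dimmer probe was 2.51 and 3.60 in RFP-positive cells and 1.43 and 1.97 in RFP-negative cells, without overlap and with means 1.35 apart. That ratio was chosen after its values were seen and has no test here. Such a ratio did not overlap in 38.9% of 2796 genes with 2 tested probes, Kdr among them, at −0.36, while the Nrp2 ratio overlapped. The sign of the Vegfa difference depended on the probe, and neither probe passed the adjusted test. When both were averaged the difference shrank to 0.14. Both accessions belong to Vegfa in RefSeq, but the probe sequences were not used here, so which transcripts each probe reads was not tested.

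**Figure D2:**
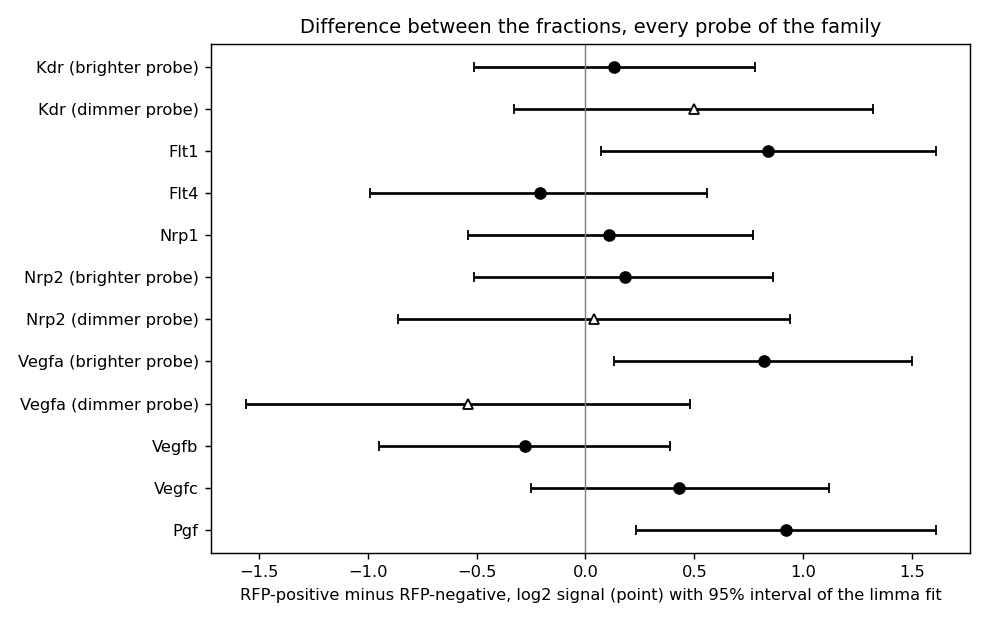
Each point is the RFP-positive minus RFP-negative difference in log2 signal of 1 probe, with the 95% interval of the limma fit over 30519 probes; circles are the brighter or only probe of a gene and open triangles the dimmer of 2. Intervals lie above 0 for Flt1, Pgf and the brighter Vegfa probe, and the 2 Vegfa probes fall on opposite sides of 0.

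Vegfc was at 1.91 and 2.17 in RFP-positive cells and 1.51 and 1.70 in RFP-negative cells. Its fractions were 0.21 apart without overlap, and the difference was 0.43 (95% interval −0.20 to 1.07, limma adjusted p 0.750), or 0.31 without RFP-positive replicate 2. Vegfb, read by a single probe, was at 0.15 and 0.41 in RFP-positive cells and 0.53 and 0.58 in RFP-negative cells. Both RFP-positive arrays lay below, and the difference of −0.28 had a 95% interval of −0.90 to 0.34 (limma adjusted p 0.781). Vegfd, the remaining VEGF receptor ligand of the mouse and not one of the 9, was at −5.0 and −4.73 in RFP-positive cells, not well above background on either array, and at −3.70 and −2.93 in RFP-negative cells, well above background on both. With the RFP-positive arrays set to their lowest signal well above background, Vegfd was 1.92-fold lower in the RFP-positive fraction. That floor is not a strict limit, since some probes not well above background read higher than the floor of their array. The fold for Vegfd was 1.47 without RFP-negative replicate 2 and 2.51 without RFP-negative replicate 1. The limma fit to the signals themselves had an adjusted p of 0.655.

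The starts of 4 of these genes are printed to show the sequence beside the genes the results turn on: Kdr, the gate, and the 3 genes with an unadjusted p under 0.05. Each is the 250 bases before the most upstream annotated start in RefSeq (GRCm38.p6), 5′ to 3′ on the gene's strand, at chr5:75978456-75978705, minus strand for Kdr, chr5:147726012-147726261, minus strand for Flt1, chr17:46032378-46032627, minus strand for Vegfa and chr12:85177314-85177563, minus strand for Pgf. Capitals mark the GC box GGGCGG bound by Sp1 factors, the hypoxia response core ACGTG or GCGTG, and the ETS motif CCGGAA, each on either strand.
Kdr: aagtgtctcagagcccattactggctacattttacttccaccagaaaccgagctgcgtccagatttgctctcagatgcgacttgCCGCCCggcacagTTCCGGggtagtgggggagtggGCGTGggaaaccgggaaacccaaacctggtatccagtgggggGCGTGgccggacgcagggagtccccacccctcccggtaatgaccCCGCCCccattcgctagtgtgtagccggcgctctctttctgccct
Flt1: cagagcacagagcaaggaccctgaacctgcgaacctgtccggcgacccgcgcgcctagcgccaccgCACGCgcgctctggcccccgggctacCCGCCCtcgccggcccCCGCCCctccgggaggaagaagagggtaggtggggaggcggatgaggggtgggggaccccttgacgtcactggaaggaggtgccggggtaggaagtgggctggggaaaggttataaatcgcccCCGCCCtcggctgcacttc
Vegfa: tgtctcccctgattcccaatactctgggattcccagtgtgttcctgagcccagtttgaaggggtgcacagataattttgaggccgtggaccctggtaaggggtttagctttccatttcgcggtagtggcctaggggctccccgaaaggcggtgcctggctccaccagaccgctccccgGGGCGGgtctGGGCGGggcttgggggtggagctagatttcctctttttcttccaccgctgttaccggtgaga
Pgf: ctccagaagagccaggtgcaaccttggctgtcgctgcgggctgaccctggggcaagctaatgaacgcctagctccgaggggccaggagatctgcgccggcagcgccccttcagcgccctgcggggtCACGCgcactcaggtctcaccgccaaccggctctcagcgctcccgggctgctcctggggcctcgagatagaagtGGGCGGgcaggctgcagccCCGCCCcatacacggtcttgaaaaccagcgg
All 9 genes held a GC box in this window, as did 33% of 27025 promoters of the same length. A hypoxia response core was in 6 of 9, against 38.6% of all, and was not among the letters of the Flt4, Vegfa and Vegfc windows. The ETS motif was in 1 of 9, Kdr, from 153 to 148 bases before the start, against 12.3% of all. A match is a string of letters and was not tested as a binding site. Marked strings do not overlap in the 4 windows printed.

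The genes around VEGF signalling were read next, in 7 lists, and none of their genes passed an adjusted p of 0.05 in limma's fit. The counts without overlap in these lists and in the marker lists stand beside 18.8% of all genes on the higher and 21.6% on the lower side. In the list of 31 genes of signal transduction below the receptors, all were tested, 8 were higher and 5 lower without overlap, and the median difference was 0.13. Prkcb, a protein kinase C isoform activated below the Kdr receptor, was at −3.13 and −1.61 in RFP-positive cells and at −4.70 and −4.47 in RFP-negative cells, not well above background on either of those. With the RFP-negative arrays set to their lowest signal well above background, Prkcb was 3.35-fold higher in the RFP-positive fraction. As for Vegfd, that floor is not a strict limit. The limma adjusted p was 0.664 for the signals themselves. The fold for Prkcb was 1.98 without RFP-positive replicate 2 and 5.66 without RFP-positive replicate 1. Mapk14, which encodes p38 alpha, was higher by 0.70, and Ptprj, a receptor phosphatase that acts on the Kdr receptor, by 0.52. Pxn, the focal adhesion protein paxillin, was lower by −1.16, with −0.04 and −1.19 in RFP-positive cells against 0.52 and 0.56 in RFP-negative cells.

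Among 14 genes known to respond to VEGF in endothelium, 3 were higher and 0 lower without overlap, and the median was −0.03. Esm1, an endothelial proteoglycan of angiogenic tip cells, was at −0.15 and −0.76 in RFP-positive cells and −2.36 and −2.11 in RFP-negative cells, so every RFP-positive array was more than 2-fold higher. Its difference was 1.78 (SE 0.31, limma adjusted p 0.581). Apln, the apelin ligand, was higher by 0.63 and Hlx, a homeobox factor, by 0.68, both without overlap. Nr4a1, an immediate early nuclear receptor, overlapped at −0.34, as did 11 genes of the list in all.

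Of 11 genes that process or bind the ligands, 10 were tested, with 3 higher and 1 lower without overlap and a median of 0.07. Pcsk5, a proprotein convertase, was at −1.32 and −1.19 in RFP-positive cells and −2.11 and −1.90 in RFP-negative cells, a difference of 0.75. Hspg2, the heparan sulphate proteoglycan perlecan, was higher by 0.92 and Furin, another convertase, by 0.29. The gene on the lower side was Vegfd. Of 14 semaphorins, plexins and other partners of the neuropilins, 9 were tested, with 4 higher and 1 lower without overlap and a median of 0.14. Sema3f, a semaphorin ligand of Nrp2, was at 1.97 and 2.09 in RFP-positive cells and at 1.34 on both RFP-negative arrays, a difference of 0.69. The plexins Plxna2 and Plxna4 were higher by 0.63 and 0.45, and Plxna1 was lower by −0.96.

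Oxygen sensing genes, which set VEGF-A levels through hypoxia-inducible factors, had a median of 0.02 over 9 genes, with 2 higher and 1 lower without overlap. Vhl, which marks those factors for breakdown, was higher by 0.57, while Hif1a and Epas1, which encode them, each differed by 0.24 and overlapped, as did the oxygen sensor Egln1 at −0.42. Other hypoxia targets had a median of 0.06 over 11 genes, with 1 higher and 3 lower without overlap. Pfkfb3 was at 0.36, Ndrg1 at 0.35, Adm at −0.27 and Bhlhe40 at −0.45. A list of 15 transcription regulators was read as candidate upstream factors of Kdr, and their place relative to Kdr was not tested. Of these, 4 were higher and 0 lower without overlap, with a median of 0.11. Sox7 was at 3.21 and 3.85 in RFP-positive cells and 2.77 and 2.63 in RFP-negative cells, a difference of 0.83. Foxc2 differed by 0.47 and Tal1 by 0.39, without overlap, and Etv2 by −0.72, with overlap.

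**Figure D3:**
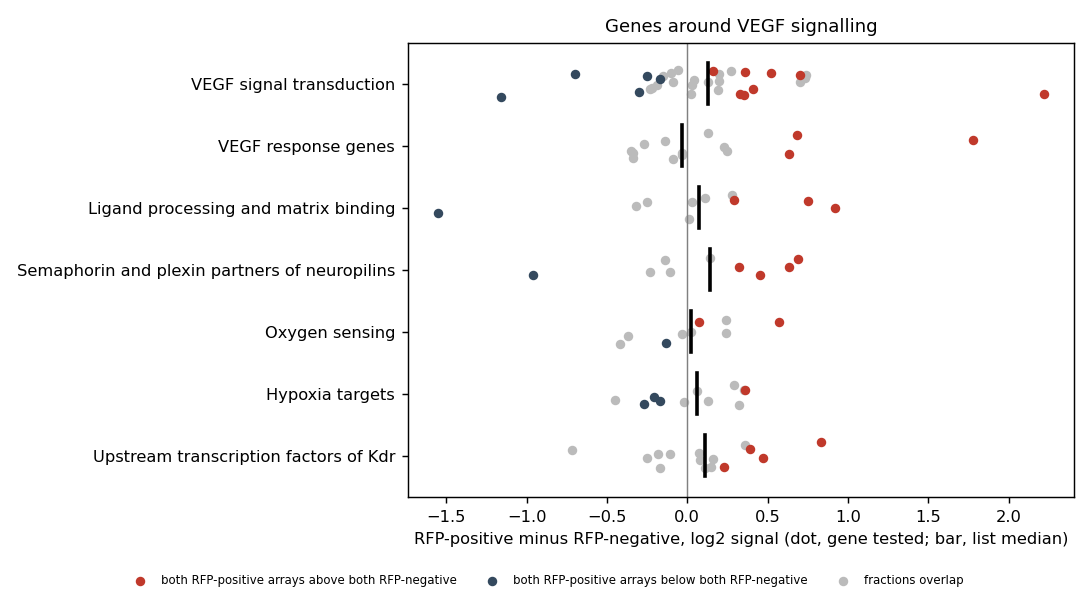
Each dot is a tested gene's RFP-positive minus RFP-negative difference in log2 signal, by list; red dots have both RFP-positive arrays above both RFP-negative arrays, dark dots both below, grey dots overlap, and bars are list medians. Medians lie between −0.03 and 0.14. The dots farthest from 0 are Prkcb and Esm1 on the right and Vegfd on the left, with Prkcb and Vegfd at their fitted values, not at the folds set from a floor.

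Markers of other cell types were read in the same way, and none of their genes passed an adjusted p of 0.05 in limma's fit, in any of 7 lists. Like the pathway lists, these lists were chosen with earlier results of these data known, so their counts are descriptions only. All 9 adipocyte markers were lower without overlap in RFP-positive cells, with a median of −1.63, and their summed linear signal, in multiples of the array's 75th percentile, was 21.1 and 15.9 in RFP-positive cells and 50.4 and 61.5 in RFP-negative cells. The members of smallest p were Cidec at −2.54, Cfd at −1.81 and Pparg at −1.41. Such sums, here and below, weigh the brightest genes of a list most, and levels of different probes are not comparable on an array. Of 10 stromal and fibroblast markers, 8 were tested and 7 were lower without overlap, with a median of −0.84, and neither Postn nor Dcn stood well above background on an array. Their sum was 54.7 and 42.2 in RFP-positive cells and 65.1 and 106 in RFP-negative cells, and Vcam1 was at −1.50, Thy1 at −0.89 and Col1a1 at −0.85. Mural markers had a median of −0.40 over 7 tested, with 3 lower without overlap and 4 that overlapped, Acta2 at −0.99, Cnn1 at −0.62 and Tagln at −0.61, and sums of 23.2 and 22.9 in RFP-positive cells against 27.7 and 41.6 in RFP-negative cells. Endoderm markers had a median of −0.87 over 6 tested, with 3 lower without overlap and 3 that overlapped, and sums of 13.8 and 14.3 in RFP-positive cells against 14.2 and 28.3 in RFP-negative cells. Rbp4 was at −2.01, Epcam at −1.55 and Cldn6 at −1.52, while Ttr was at −0.22, Foxa2 at 0.14 and Sox17 at 0.36.

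Endothelial markers, which a Flk-1 gate should hold, were present in both fractions. All 12 endothelial markers were well above background on all 4 arrays, with a median difference of 0.00, 4 higher and 1 lower without overlap, and sums of 81.6 and 87.6 in RFP-positive cells against 79.6 and 70.8 in RFP-negative cells. Cldn5, a tight junction gene, differed by 0.60, Tek by 0.40 and Eng, the endoglin co-receptor, by −0.98, the last with overlap. Of 10 blood markers, 7 were tested, with 2 higher and 1 lower without overlap, a median of 0.16 and sums of 21.2 and 16.4 in RFP-positive cells against 17.5 and 14.9 in RFP-negative cells. Gata1 was higher by 1.44 and Itga2b by 0.59, Spi1 was lower by −1.11, and Hba-x stood well above background on no array. Cardiac markers had a median of −0.13 over 8 tested, with 4 higher without overlap and 4 that overlapped, and sums of 16.5 and 25.9 in RFP-positive cells against 14.3 and 13.2 in RFP-negative cells. Tbx5, well above background on only 1 RFP-negative array, was at 1.28, Myl4 at 0.88, Tnnt2 at 0.65 and Hand1 at 0.12, all without overlap. Nkx2-5 was at −0.38, Actc1 at −0.39, Myh6 at −0.47 and Myl7 at −0.94, all with overlap. What part these marker differences had in the differences of Flt1, Vegfa, Vegfb, Vegfc, Vegfd and Pgf was not tested.

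**Figure D4:**
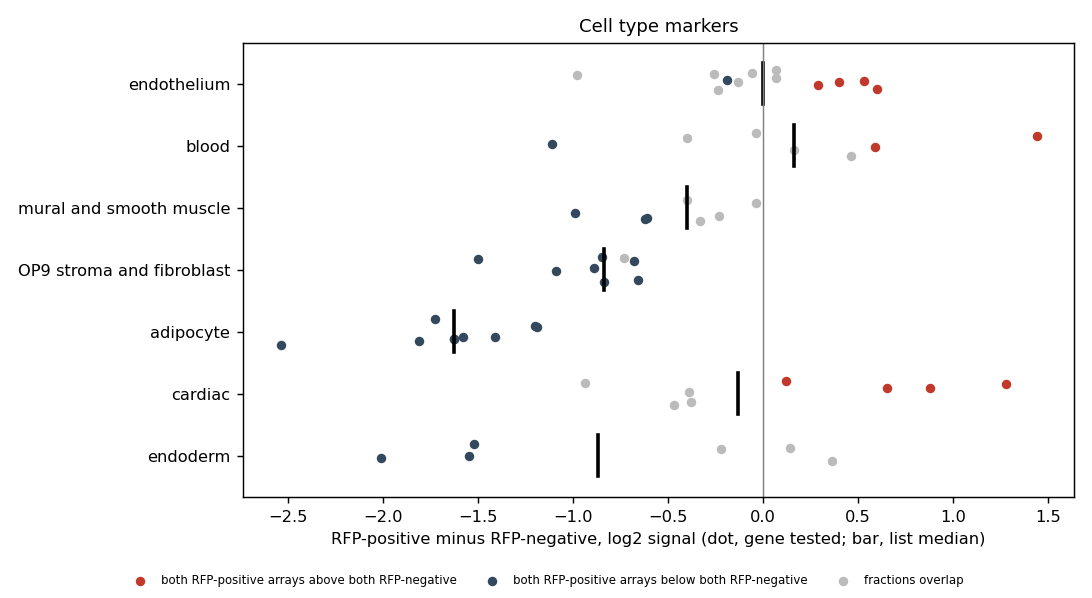
Each dot is a tested marker gene's RFP-positive minus RFP-negative difference in log2 signal, coloured as red for both RFP-positive arrays above both RFP-negative arrays, dark for both below and grey for overlap, with bars at list medians. The adipocyte and stromal markers lie to the left of 0, at medians of −1.63 and −0.84, while the endothelial median is 0.00.

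The genes most like 3 of the members in their course over the 4 arrays were found by the root mean square difference of mean-centred log2 signals, among 12416 other genes well above background on all 4. For Flt1 these were Ccdc92b at 0.0151, Dhx33 at 0.0297 and Inpp4a at 0.0336, and 32 named genes lay within 0.1. Dhx33, for example, was at 0.39 and 0.84 in RFP-positive cells and at −0.01 and −0.37 in RFP-negative cells. For Vegfa, by its brighter probe, they were Lrp11 at 0.0134, Hunk at 0.0173 and Fam199x at 0.028, with 55 genes within 0.1. For Kdr, whose values varied little, they were D3Ertd751e at 0.0105, Grin3b at 0.0135 and Spatc1l at 0.0152, with 764 genes within 0.1. Over 4 arrays such likeness is a description only.

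**Figure D5:**
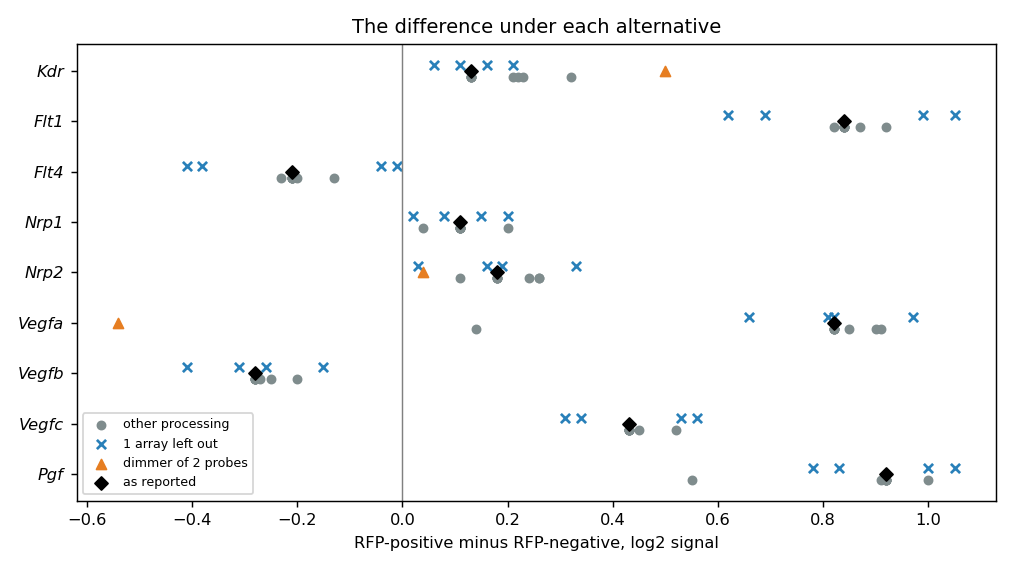
For each member, the RFP-positive minus RFP-negative difference in log2 signal is drawn as reported (diamonds), with 1 array left out (crosses), under other processing (circles) and, for Kdr, Nrp2 and Vegfa, with the dimmer of 2 probes (triangles). Each member stays on its side of 0 under all 13 alternatives, and the dimmer Vegfa probe is the 1 point on the opposite side. Circles for the deposited table, the filters, the trend and robust options and the replicate block equal the diamonds by construction. Crosses could change side only for Flt4 and Nrp1, whose fractions overlap.

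Under all 13 alternatives tried, each of the 9 genes kept the sign of its difference, and no adjusted p of a member fell below 0.176. Flt4, Nrp1 and Nrp2 came within 0.03 of 0 when 1 array was left out. The exception to the common sign was the dimmer Vegfa probe, an alternative chosen after the data were seen.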

How the data were processed

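Total RNA of 2 RFP-positive and 2 RFP-negative fractions was labelled with Cy3 and read on 4 one-colour Agilent arrays; samples were grouped by the labels' titles. The intensity values deposited by the authors are, per the file headers, the processed signals written by Feature Extraction 10.10.1.1 (Agilent), and all arrays lay on 1 slide and in 1 scan. The deposited value table is the same intensity times 1 constant per array, 5.39 to 6.45, chosen in a way not given in the sources used here, with column medians of 133.9 and 142.3 for RFP-positive and 136.2 and 143.9 for RFP-negative replicates 1 and 2.

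Of the 62976 spots, 3671 controls and 115 to 153 outlier spots per array were left out; no spot of a member was an outlier. Signals were divided by the 75th percentile of their array, and the log2 was averaged over a probe's spots. Of 55681 probes, 27229 had 1 symbol through RefSeq accessions (GRCm38.p6), 0 several and 28452 none. The probe of highest mean stood for a gene, tested if well above background on both arrays of at least 1 fraction. Where a fraction had no array well above background, a fold was set from each array's lowest signal well above it. That floor is not a strict limit. limma 3.58.1 in R 4.3.3 was used without a block (2 residual and 2.77 prior degrees of freedom), two-sided, with intervals at 95%; steps were tested on simulated data. Python 3.11.15, pandas 2.3.3 and matplotlib 3.10.9 did the rest.

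Named are all members, up to 4 genes per pathway list (those at least 2-fold apart between all arrays, then the smallest p), up to 3 per marker list by p, and the 3 genes most like Kdr, Flt1 and Vegfa. Members and lists were chosen with earlier results of these data known. The alternatives were quantile and median scaling, normexp on median signals (offset 50) then quantile normalization, the deposited table, other filters, the mean of probes, eBayes with trend and robust, a replicate block and each array left out. The number of arrays limits the precision.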

Additional observations from a re-analysis of the deposited data

How the results depend on the processing

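Each of the 9 differences kept its sign under 13 alternatives. The deposited table, the filters, eBayes with trend and robust and the replicate block could not change a difference, so their signs were fixed in advance. The mean of probes likewise could not change a member with 1 probe. Leaving out 1 array could not turn the sign of a member without overlap, which leaves Flt4 and Nrp1. No member passed an adjusted p of 0.05 in limma fits to all 4 arrays. The dimmer Vegfa probe, added after seeing the data, turned Vegfa to −0.54, and the cause was not tested. The replicate numbers could not be shown to pair the arrays (correlation of same-numbered deviations 0.0922 over genes); with the replicate block the differences were as reported, such as 0.84 for Flt1 with its unadjusted p at 0.0522, and 0 members passed. With all 4 arrays, members at an unadjusted limma p under 0.05 were 3, or 2 with no filter, the mean of probes and the replicate block. Such a p was reached there by 1121 of 20656, 874 of 13438 and 1039 of 13430 genes. With 1 array left out, a fraction rests on 1 array, so only differences are given. They were 0.62 to 1.05 for Flt1, 0.66 to 0.97 for Vegfa and 0.78 to 1.05 for Pgf. Members lower without overlap then ran from 1 to 2, against 32.0% to 46.9% of all genes, where fewer arrays are left to overlap. With all 4 arrays, members higher without overlap were 6, but 4 under quantile normalization, normexp and the mean of probes, and 7 under median scaling. The matching shares of all genes were 18.8%, then 20.6%, 20.5% and 17.9% in turn, and 24.4% under median scaling. Scaling to the median moved the median of all genes by 0.08, and list medians to 0.22 for signal transduction, 0.15 for ligand processing, 0.10 for oxygen sensing, 0.14 for hypoxia targets, 0.19 for upstream factors and 0.09 for endothelium. Quantile normalization gave 0.15 for hypoxia targets and 0.16 for upstream factors, and normexp with quantile normalization −0.22 for mural markers. Requiring all 4 arrays above background gave 0.09 for signal transduction, −0.38 for cardiac and −1.52 for endoderm markers. With no filter the neuropilin partners were at −0.13, blood at 0.31 and endoderm at −0.22, and with the mean of probes the neuropilin partners were at −0.11, hypoxia targets at −0.02 and blood at 0.36. Leaving out 1 array gave medians of 0.05 to 0.15 for signal transduction, −0.09 to 0.30 for VEGF responses, 0.06 to 0.25 for ligand processing, −0.03 to 0.29 for neuropilin partners, 0.01 to 0.09 for oxygen sensing, −0.07 to 0.03 for hypoxia targets, 0.02 to 0.18 for upstream factors, −0.02 to 0.11 for endothelium, −0.11 to 0.40 for blood, −1.87 to −1.25 for adipocyte, −0.26 to 0.28 for cardiac and −1.24 to −0.35 for endoderm markers. The causes of these moves were not tested. Of 182 list medians, 139 moved by no more than the spread between arrays. Those 139 include all medians under the deposited table, eBayes with trend and robust and the replicate block, which cannot move a median. Signal near background limits Prkcb and Vegfd, whose folds are set from a floor that is not a strict limit. It also limits Tbx5 and Ttr, each well above background on only 1 RFP-negative array, and Egln1, on only 1 RFP-positive array.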
